A study of Mus musculus with 6 samples.

Results

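Imprinted genes of the mouse, which are read mainly from the copy inherited from one parent, were compared between shCdGAP and shCTL cells by imprinted cluster and by expressed parental allele. The set held 47 known imprinted genes named by symbol, 27 of them expressed from the paternal copy and 20 from the maternal copy, in 20 clusters. Of these, 45 matched a count for 1 of the 41214 genes in the files, and Snrpn and Peg13 were matched by no symbol and are not analysed here under their own names. The cells were ErbB2-expressing mammary tumour explant cells derived from NMuMG, a mouse mammary epithelial line. The 3 shCdGAP libraries (genotype CdGAP KD) came from cells with a short hairpin RNA against CdGAP, the product of the gene Arhgap31. The 3 shCTL libraries (genotype WT) came from cells with a control hairpin, and cells of both groups expressed ErbB2. The labels give neither the form of ErbB2, nor the hairpin sequences, nor whether a group grew from 1 clone, nor whether the replicates were separate cultures, so p-values here measure the spread between libraries, which may be technical.

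Imprinting is set in the germ line. Methylation laid down at imprinting control regions in the egg or the sperm is kept through later cell divisions, so that one parental copy of each controlled gene is silent and the other is read. Imprinted genes lie in clusters in which protein-coding genes are often paired with a long non-coding RNA read from the opposite parental copy, and many of them act on growth, placental function and hormone action. Loss or gain of an imprint can silence such a gene or let both copies be read. The counts give the sum over both copies of a gene and do not tell the parental copies apart.

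The libraries held 22088774 to 25893195 counts in the shCdGAP group and 19176540 to 26824249 in the shCTL group, so that 1 count was worth 0.0364 to 0.0516 CPM (counts per 1e+06 counts of the TMM-scaled library). Arhgap31, the targeted gene, was at 1.70, 9.16 and 8.21 CPM in shCdGAP libraries 1, 2 and 3, against 13.2, 14.4 and 15.1 CPM in the shCTL libraries (log2 fold change −1.16 ± 0.55 SE, adjusted p = 0.190). shCdGAP replicate 1 stood apart from the other shCdGAP libraries on the second principal component, which held 21.7% of the variance, and without it Arhgap31 fell by 0.71 on the log2 scale (adjusted p = 0.00407). Mammary epithelial markers summed to 7241 to 11097 CPM in shCdGAP and 5919 to 8429 CPM in shCTL libraries. Krt8 averaged 4473 and 3611 CPM and Krt18 3433 and 3042 CPM in shCdGAP and shCTL. All 11 markers were counted in some library, but not all in both groups. Over the shCdGAP and the shCTL libraries, Epcam had 0 and 92 counts, Krt5 2 and 100, and Ehf 4942 and 24. Krt14 had 1 and 3 counts, and Elf5 1 and 2. Fibroblast markers summed to 3.41 to 7.06 CPM in shCdGAP and 5.35 to 6.29 CPM in shCTL libraries, and Lum, Thy1 and Dpt were at 0. Leukocyte markers summed to 7.41 to 19.4 CPM in shCdGAP and 19.5 to 24.4 CPM in shCTL libraries with Adgre1 at 0, and endothelial markers to 0.136 to 0.760 CPM in shCdGAP and 2.17 to 2.33 CPM in shCTL libraries with Emcn and Cldn5 at 0. Of the tested markers, 3 of 9 epithelial ones rose and 2 fell, 1 of 4 leukocyte markers rose, 1 of 2 endothelial markers fell and 0 of 2 fibroblast markers were called, and the part of other cell types in the results below was not tested.

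Imprinted genes changed in both directions. Among those classed as maternally expressed the only rise was that of Copg2, a call that was kept in 2 of 6 fits with a library left out. Of the 45 with a count, 23 passed the filter on low counts, 11 were counted at up to 17 reads in a library and were not tested, and 11 were at 0 in all 6 libraries. Among the 23 tested, 10 (43.5%) had an adjusted p under 0.05 in edgeR's quasi-likelihood test with Benjamini-Hochberg adjustment, against 21.7% of all 13483 tested genes. Zrsr1, Dio3, Ddc, Copg2 and Inpp5f rose (10.4% of all tested genes rose), and Peg3, Phlda2, Ppp1r9a, Blcap and Impact fell (11.4% of all tested genes fell). A gene near 0 in one group passed the filter through the group in which it was high, so these shares are a description of the tested genes. The groups did not overlap for 18 of the 23, against 44.1% of all tested genes. The median log2 fold change of the 23 was −0.05, beside 0.01 over all tested genes, while the median size of the change without its sign was 0.82, beside 0.33 over all tested genes. The count of called genes turned on single libraries: it was 6 of 23 without shCdGAP replicate 2 (12.9% of all tested genes in that fit), 15 of 24 without shCdGAP replicate 1 (41.8%) and 7 without any 1 of the shCTL libraries (10.2% to 13.4%), so the share over all genes moved as well. It was 11 of 23 without shCdGAP replicate 3 (18.2%), 18 of 24 without both libraries numbered 1 (52.2%) and 11 of 23 with the replicate number as a block (20.4%). Because the RNA came from bulk cells, a change in the number of cells that read a gene and a change in the RNA per cell cannot be told apart.

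By allele, 13 paternally expressed genes were tested, of which Zrsr1, Dio3, Ddc and Inpp5f rose, while Peg3 and Impact fell (46.2% called, median log2 fold change −0.05). Of 10 tested maternally expressed genes, Copg2 rose, while Phlda2, Ppp1r9a and Blcap fell (40.0% called, median −0.14). Among the 12 tested genes whose imprint is described in many tissues, 2 rose and 3 fell. Of these 12, 10 were paternally expressed (2 rose, 2 fell) and 2 maternally (0 rose, 1 fell). Among the 9 whose imprint is described in some tissues or stages 2 rose and 2 fell, and among 2 with an imprint of 1 isoform 1 rose. Ddc, whose imprint is described for 1 transcript in the embryonic heart, was placed in the class of some tissues or stages. Its count sums all its transcripts. A tested gene was present in 16 of the 20 clusters, and in 10 of the 16 at least 1 gene was called.

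**Figure D1:**
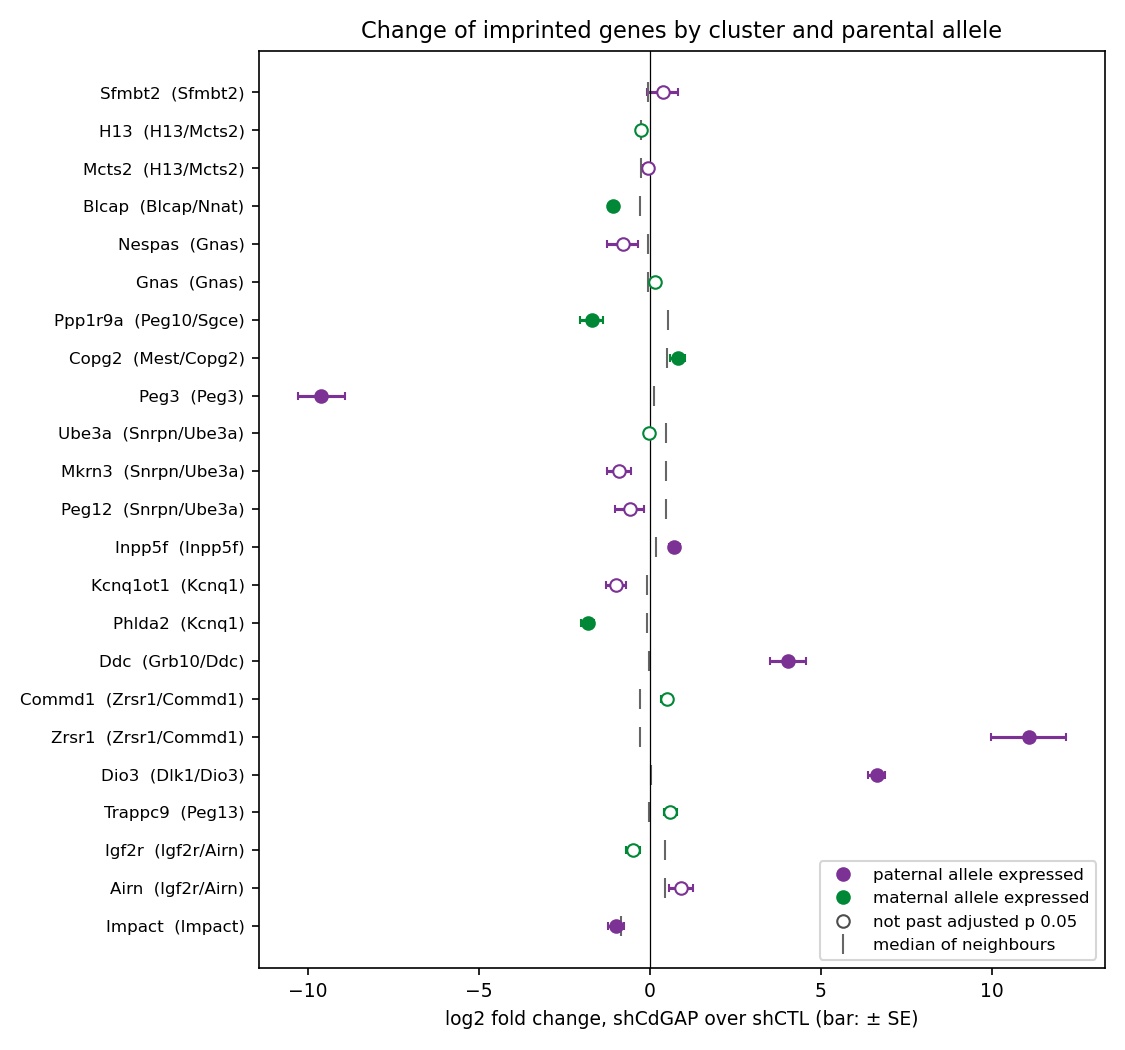
Log2 fold change (shCdGAP over shCTL, horizontal axis) with its standard error for each of the 23 tested imprinted genes, coloured by expressed parental allele, with filled points at an adjusted p under 0.05. Zrsr1 (11.09), Dio3 (6.64) and Ddc (4.04) lie farthest to the right and Peg3 (−9.60) farthest to the left, while the other 19 lie between −1.82 and 0.92.

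Zrsr1 is a paternally expressed retrogene, a copy of the X-linked splicing factor gene Zrsr2, that lies inside an intron of Commd1 on chromosome 11 (22973215 to 22976496, plus strand, GRCm38). It was the only gene of the set that was at 1 CPM or more in every library of one group and under 0.2 CPM in every library of the other, a pattern that 0.0801% of all genes in the files had with shCdGAP high and 0.315% with shCdGAP low. Its counts were 432, 185 and 164 in shCdGAP libraries 1, 2 and 3 (19.3, 8.39 and 6.50 CPM), and 0 in each of the 3 shCTL libraries. Every shCdGAP library read the gene and no read was counted in any shCTL library. Against a floor of 3 counts over the shCTL group, Zrsr1 was at least 275-fold higher in shCdGAP (adjusted p = 0.00467), and this bound, like the intervals given further on, covers counting error only. With each library left out in turn the bound ran from 172-fold, without shCTL replicate 2, to 340-fold, without shCdGAP replicate 3, and it was 181-fold without shCdGAP replicate 1. Zrsr2, which shares sequence with Zrsr1, was at 27.2, 34.2 and 32.5 CPM in shCdGAP and 41.2, 42.6 and 40.3 CPM in shCTL libraries (log2 fold change −0.40 ± 0.13 SE, adjusted p = 0.0681). Zrsr1 was at 0 in shCTL libraries in which its parent gene was read, and how reads were split between Zrsr1 and Zrsr2 was not tested.

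Commd1, the host gene that encodes a copper homeostasis protein, is expressed mainly from the maternal copy in mouse brain. It was at 27.4, 32.0 and 33.7 CPM in shCdGAP and 25.6, 19.6 and 20.6 CPM in shCTL libraries. The groups did not overlap, and the log2 fold change was 0.50 ± 0.16 SE (adjusted p = 0.0681, and 0.00884 without shCdGAP replicate 1). The exons of Commd1 cover 6.19% of the Zrsr1 exon bases on the opposite strand, and the counting was strand-specific.

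Dio3, the thyroid hormone-inactivating deiodinase gene at the far end of the Dlk1/Dio3 cluster on chromosome 12 (110279068 to 110281097, plus strand, GRCm38), is expressed mainly from the paternal copy. It was at 20.96, 22.5 and 26.5 CPM in shCdGAP and 0.155, 0.291 and 0.226 CPM in shCTL libraries. The shCdGAP libraries lay close together and all were far above every shCTL library. Dio3 rose 101-fold by the ratio of counts pooled over each group, per scaled library size (group means 23.3 ± 2.87 CPM in shCdGAP and 0.224 ± 0.0682 CPM in shCTL, SD, n = 3 each; log2 fold change 6.64 ± 0.26 SE, adjusted p = 9.61e-05). The other genes of the set in this cluster stayed near 0. Dlk1, a paternally expressed Notch-family ligand gene, was at 0 in all 6 libraries, and the maternally expressed non-coding RNA genes Meg3, Rian and Mirg had 0, 2 and 0 counts over the shCdGAP libraries and 1, 5 and 1 over the shCTL libraries.

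The gene ENSMUSG00000097758, on the strand opposite to Dio3 and 1000 bp from it, has the coordinates that RefSeq gives for the antisense RNA gene Dio3os. It was at 47.2, 26.4 and 22.6 CPM in shCdGAP and 0.155, 0.255 and 0.301 CPM in shCTL libraries. Like Dio3, it rose, with no overlap between the groups (log2 fold change 7.01 ± 0.44 SE, adjusted p = 0.000311).

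Peg3, a paternally expressed zinc finger gene that acts in growth control and maternal behaviour in mice, lies on chromosome 7 (6703892 to 6730421, minus strand, GRCm38). It had 6, 0 and 1 counts in shCdGAP libraries 1, 2 and 3 (0.268, 0 and 0.0396 CPM), against 2285, 1860 and 1648 counts in the shCTL libraries (118, 67.7 and 62.0 CPM). The gene was clearly read in every shCTL library and nearly absent from every shCdGAP library. By the same pooled ratio Peg3 was 785-fold lower in shCdGAP (group means 0.103 ± 0.145 CPM in shCdGAP and 82.5 ± 30.8 CPM in shCTL, SD, n = 3 each; log2 fold change −9.60 ± 0.70 SE, adjusted p = 0.000446). Of the 7 counts in shCdGAP, 6 were in replicate 1, and without that library the log2 fold change was −11.60. Usp29, the paternally expressed ubiquitin protease gene that starts back to back with Peg3, had 0 counts over the shCdGAP libraries and 1 over the shCTL libraries. The counted Usp29 gene (6961160 to 6963769) starts 230577 bp from its RefSeq start beside Peg3, so reads near that start were not counted for it. Zim1, the maternally expressed zinc finger gene beside Peg3, had 7, 3 and 0 counts in the shCdGAP libraries and 1, 0 and 0 in the shCTL libraries. Its pooled ratio was 10.5 (exact 95% binomial interval 1.5 to 458), and 4.66 (0.374 to 245) without shCdGAP replicate 1.

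With thresholds of 2 and 0.4 CPM in place of 1 and 0.2 CPM, Dio3 joined Zrsr1 among the genes past the upper threshold in every shCdGAP library and below the lower one in every shCTL library, and Peg3 met the reverse (0.0922% and 0.252% of all genes in the files in those directions). The promoter windows of these 3 genes, the ones that went between near 0 and clear expression, are given from RefSeq (GRCm38.p6) as 250 bases before to 50 bases after the annotated start, 5′ to 3′ on the gene's strand, with CG dinucleotides, the sites at which an imprint is methylated, in capitals. The windows are chr11:22971755-22972054 (plus strand) for Zrsr1, chr12:110278980-110279279 (plus strand) for Dio3 and chr7:6730370-6730669 (minus strand) for Peg3.
Zrsr1: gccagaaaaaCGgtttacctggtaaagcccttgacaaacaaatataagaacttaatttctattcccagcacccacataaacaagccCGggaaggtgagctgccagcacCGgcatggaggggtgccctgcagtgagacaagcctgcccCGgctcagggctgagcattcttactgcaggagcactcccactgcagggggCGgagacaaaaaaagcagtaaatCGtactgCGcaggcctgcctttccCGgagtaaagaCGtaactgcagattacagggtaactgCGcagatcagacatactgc
Dio3: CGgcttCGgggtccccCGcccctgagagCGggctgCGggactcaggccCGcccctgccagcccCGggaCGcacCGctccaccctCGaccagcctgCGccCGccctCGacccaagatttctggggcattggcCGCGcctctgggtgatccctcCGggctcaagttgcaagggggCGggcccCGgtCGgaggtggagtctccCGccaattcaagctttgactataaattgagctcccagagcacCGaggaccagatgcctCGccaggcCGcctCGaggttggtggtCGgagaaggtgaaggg
Peg3: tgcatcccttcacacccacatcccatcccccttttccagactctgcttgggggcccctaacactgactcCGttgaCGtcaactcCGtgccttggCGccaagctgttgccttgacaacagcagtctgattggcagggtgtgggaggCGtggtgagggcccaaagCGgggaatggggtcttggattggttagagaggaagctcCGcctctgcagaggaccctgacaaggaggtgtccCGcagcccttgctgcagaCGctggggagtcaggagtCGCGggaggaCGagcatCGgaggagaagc

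The Zrsr1 window holds 10 CG dinucleotides, the Dio3 window 25 and the Peg3 window 13, beside a median of 7 over all 32851 RefSeq promoter windows of the mouse. The RefSeq start lies 1210 bp upstream of the counted Zrsr1 gene, 162 bp from that of Dio3 and 2 bp from that of Peg3. The Peg3 window shares 263 bases with that of Usp29. TGCCGC, the core motif bound by the imprint-keeping zinc finger protein ZFP57, was searched on both strands and occurs in none of the 3 windows. Over the whole set, 37 genes had a RefSeq window, and 13 of their 55 windows (23.6%) held TGCCGC, beside 11.6% of all windows. The motif was in 3 of 27 windows (11.1%) of tested imprinted genes and in 3 of 9 windows (33.3%) of imprinted genes at 0 in all libraries, of which 2 are windows of Mest that start 3 bases apart, so that 2 of 7 such genes carried it. The median number of CG dinucleotides over the 55 windows was 15. No methylation was measured, so these letters describe the sequence alone.

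**Figure D2:**
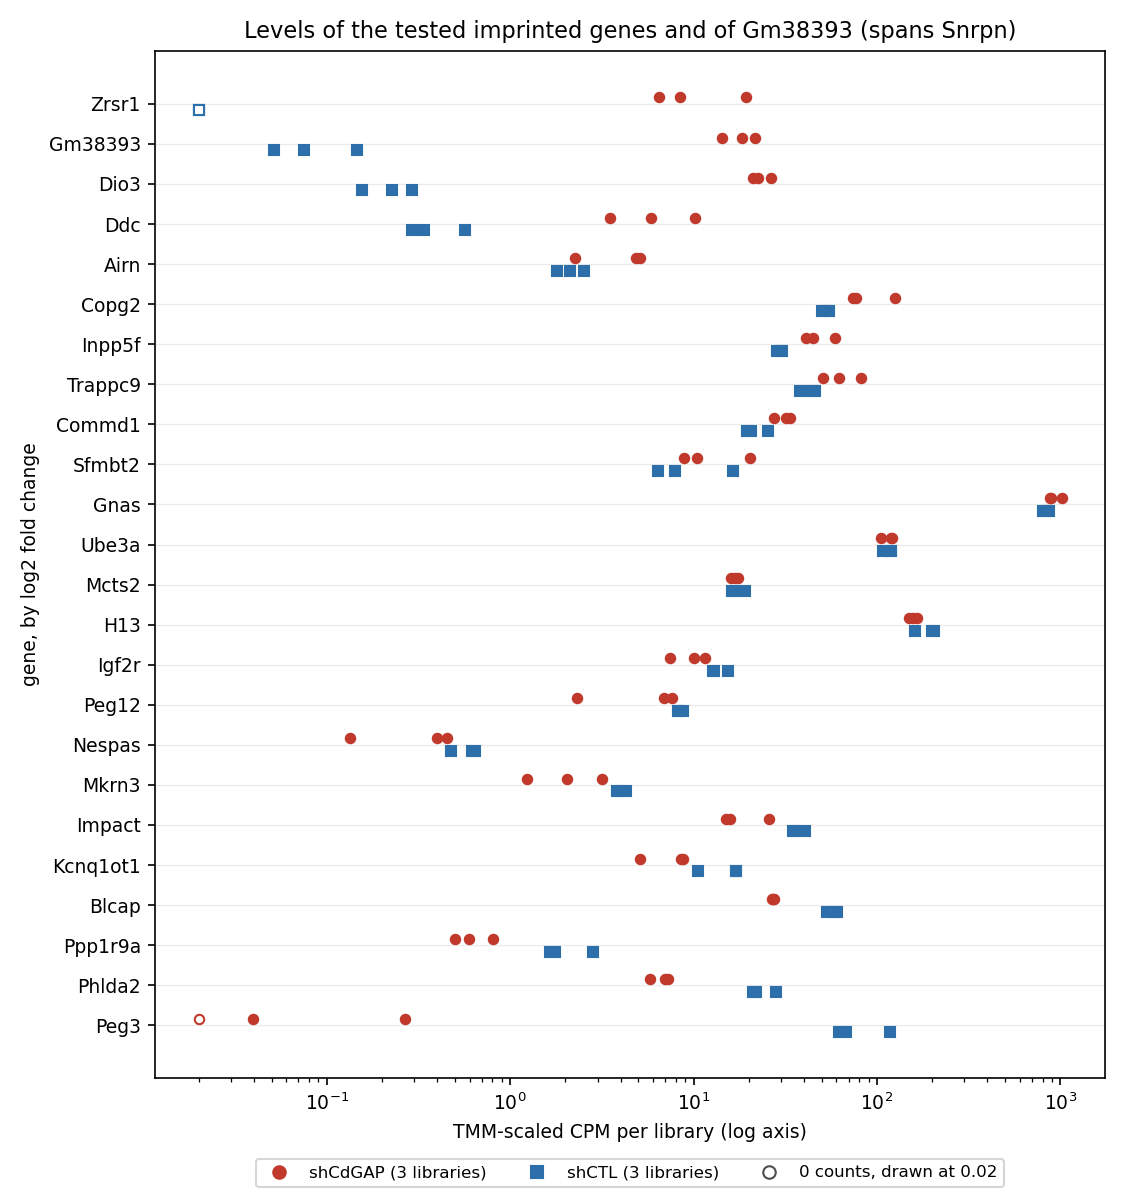
TMM-scaled CPM (log axis) in each of the 6 libraries for the 23 tested imprinted genes and for Gm38393, the gene that spans Snrpn, with shCdGAP circles drawn above shCTL squares and open symbols for 0 counts. Zrsr1, Dio3 and Gm38393 sit near or at 0 in the shCTL libraries and Peg3 in the shCdGAP libraries, whereas Gnas, H13 and Ube3a lie at similar heights in both groups.

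The Prader-Willi/Angelman region of chromosome 7, named after the human disorders of the matching region, holds paternally expressed genes around Snrpn and the maternally expressed ubiquitin ligase gene Ube3a. Snrpn itself had no count under its symbol, but Gm38393 (ENSMUSG00000000948, 59974149 to 60140219, minus strand, GRCm38) covers all 2159 exon bases that GENCODE M21 gives to Snrpn. This gene was looked up because Snrpn was unmatched, and it is no member of the set. It had 482, 405 and 361 counts in shCdGAP (21.5, 18.4 and 14.3 CPM) and 1, 4 and 2 counts in shCTL libraries (0.0516, 0.146 and 0.0752 CPM). All shCdGAP libraries read it and the shCTL libraries were near 0, so that it rose 188-fold by the pooled ratio (log2 fold change 7.5 ± 0.36 SE, adjusted p = 0.00016). Reads of Snrpn and of the rest of Gm38393 cannot be told apart in these counts.

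Snhg14, the long paternally expressed RNA gene downstream of Snrpn that runs antisense to Ube3a in mouse neurons, was at 20.1, 11.8 and 6.86 CPM in shCdGAP and 1.86, 2.77 and 2.18 CPM in shCTL libraries. It too rose, without overlap between the groups (log2 fold change 2.50 ± 0.42 SE, adjusted p = 0.00864), and it shares 27 exon bases with Gm38393 on the same strand. Ube3a, in contrast, was at 106, 120 and 119 CPM in shCdGAP and 119, 120 and 108 CPM in shCTL libraries (log2 fold change −0.01 ± 0.10 SE, adjusted p = 0.961). The groups overlapped for Ube3a.

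The paternally expressed genes at the other end of the region gave no calls in edgeR. Mkrn3, a ubiquitin ligase gene tied to the onset of puberty in human, was at 3.17, 2.04 and 1.23 CPM in shCdGAP and 4.28, 4 and 3.80 CPM in shCTL libraries (log2 fold change −0.91 ± 0.35 SE, adjusted p = 0.118). All shCdGAP values lay below all shCTL values, and without shCdGAP replicate 1 Mkrn3 passed the test at −1.30 (adjusted p = 0.00496). Peg12, a neighbour of Mkrn3, was at 2.32, 6.89 and 7.65 CPM in shCdGAP and 8.36, 8.26 and 8.80 CPM in shCTL libraries (log2 fold change −0.59 ± 0.42 SE, adjusted p = 0.371), with shCdGAP replicate 1 far below the rest. Ndn and Magel2, both members of the MAGE gene family, were at 0 in all 6 libraries.

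The genes around the members of the set were examined next. Within 500 kb of a member, 147 other genes were tested, of which 19 rose and 13 fell (21.8%, beside 21.7% of all tested genes), with a median log2 fold change of 0.02. Without shCdGAP replicate 1, 31 rose and 29 fell (41.8% of all tested genes were called in that fit). Without any 1 of the other libraries 8 to 18 rose and 6 to 9 fell (10.2% to 18.2% of all tested genes). In the Peg3 cluster 0 of 9 tested neighbours were called by edgeR (1 at an unadjusted p under 0.05, and 1 in DESeq2), and their median was 0.11, beside 0.06 for chromosome 7. In the Zrsr1/Commd1 cluster 0 of 8 were called by edgeR (1 at an unadjusted p under 0.05, and 1 in DESeq2), with a median of −0.27 beside −0.10 for chromosome 11. In the Dlk1/Dio3 cluster 1 of 6 rose, the gene at the Dio3os position, with a median of 0.04 beside 0.01 for chromosome 12. Log2 fold changes ran from −0.38 to 0.38 among the neighbours of Peg3 and from −2.17 to 0.27 among those of Zrsr1 and Commd1, far from the values of Peg3 and Zrsr1 themselves.

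**Figure D3:**
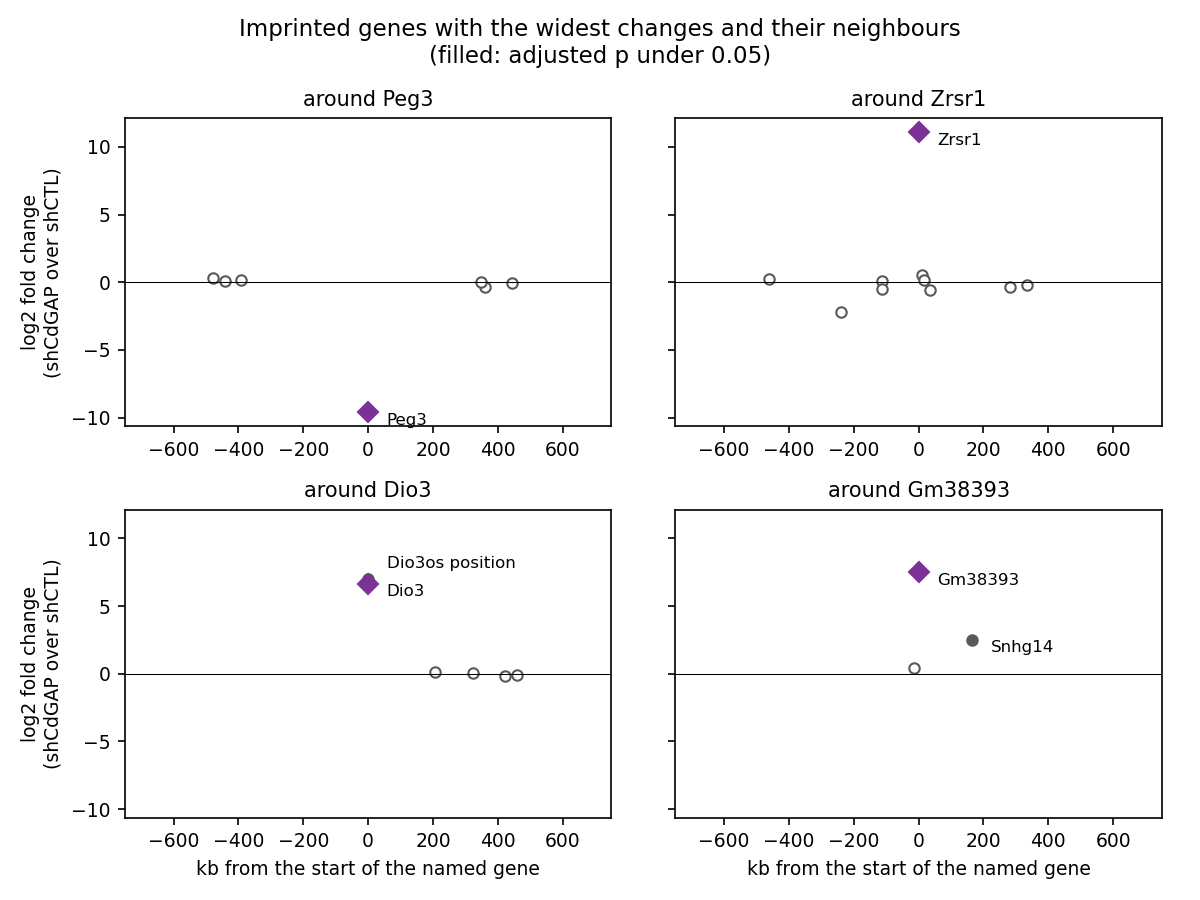
Log2 fold change (shCdGAP over shCTL, vertical axis) of tested genes by distance in kb from the start of Peg3, Zrsr1, Dio3 and Gm38393 (1 panel each), with filled points at an adjusted p under 0.05. The named gene lies far from 0 in each panel, and the called others are the gene at the Dio3os position (7.01) and Snhg14 (2.50).

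Around Igf2r and Airn on chromosome 17, 5 of 11 neighbours rose and 1 fell, with a median of 0.45 beside 0.38 for the chromosome, on which 164 of 651 tested genes rose and 37 fell. Around Impact on chromosome 18, 1 of 3 neighbours fell, and their median was −0.83 beside 0.03 for the chromosome. Around Blcap on chromosome 2, 3 of 12 fell, with a median of −0.28 beside −0.18 for the chromosome, on which 49 of 1122 tested genes rose and 180 fell. Around Copg2 on chromosome 6, 1 of 7 rose, with a median of 0.51 beside 0.01 for the chromosome. Copy number was not measured.

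The called neighbours with the smallest adjusted p were, among those that rose, the gene at the Dio3os position, Shank2 and Npepl1. Shank2, a synaptic scaffold gene, averaged 29.2 ± 4.28 CPM in shCdGAP and 10.4 ± 0.951 CPM in shCTL (log2 fold change 1.49, adjusted p = 0.00175), and Npepl1, an aminopeptidase gene near Gnas, averaged 98.6 ± 20.2 CPM in shCdGAP and 35.5 ± 3.12 CPM in shCTL (1.47, adjusted p = 0.00221; SD, n = 3 each). Among those that fell, the non-coding RNA gene Platr27, 24309 bp from Blcap, averaged 0.0862 ± 0.0448 CPM in shCdGAP and 1.90 ± 0.332 CPM in shCTL (−4.39, adjusted p = 0.000903). Rbck1, a ubiquitin ligase subunit gene, averaged 81.3 ± 8.53 CPM in shCdGAP and 159.5 ± 4.25 CPM in shCTL (−0.97, adjusted p = 0.00196), and Sox12, a transcription factor gene, averaged 6.83 ± 1.37 CPM in shCdGAP and 26.3 ± 5.28 CPM in shCTL (−1.94, adjusted p = 0.00222).

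Among the remaining called genes, Ddc and Phlda2 had the largest changes. Ddc encodes the decarboxylase that makes dopamine and serotonin, and in mouse one of its transcripts is paternally expressed in the embryonic heart. It was at 10.2, 5.85 and 3.49 CPM in shCdGAP and 0.567, 0.291 and 0.339 CPM in shCTL libraries. All shCdGAP libraries lay above all shCTL libraries, with shCdGAP replicate 1 the highest, and Ddc rose 16.8-fold by the pooled ratio (log2 fold change 4.04 ± 0.52 SE, adjusted p = 0.00314). Its neighbour Grb10, an adaptor gene that restrains insulin and growth factor signalling and is maternally expressed in most mouse tissues, had 3 counts over the shCdGAP libraries and 9 over the shCTL libraries, a ratio of 0.352 (exact 95% binomial interval 0.0612 to 1.41).

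Phlda2, a maternally expressed gene that restrains placental growth, lies in the Kcnq1 cluster. It was at 7.02, 5.80 and 7.22 CPM in shCdGAP and 28.0, 21.8 and 20.99 CPM in shCTL libraries. The groups lay well apart, and Phlda2 fell by 1.82 on the log2 scale (SE 0.18, adjusted p = 0.00127). Kcnq1ot1, the paternally expressed non-coding RNA gene that silences the maternal genes of this cluster on the paternal chromosome, was at 5.09, 8.52 and 8.72 CPM in shCdGAP and 10.5, 17.1 and 16.9 CPM in shCTL libraries. The groups did not overlap, and its log2 fold change of −0.997 ± 0.29 SE missed the threshold (adjusted p = 0.0547). With the replicate number as a block it passed (−1.001, adjusted p = 0.0162), as it did in DESeq2 (adjusted p = 0.0106) and without shCdGAP replicate 1 (−0.78, adjusted p = 0.0222). Of the other maternal genes of the cluster, Cdkn1c, a cell cycle inhibitor gene, had 0 counts in each shCdGAP library and 1, 6 and 0 counts in the shCTL libraries, and Kcnq1, a potassium channel gene, had 6 and 13 counts over the shCdGAP and the shCTL libraries. Ascl2, a transcription factor gene of the trophoblast, was at 0 in all 6 libraries.

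Blcap and Ppp1r9a, both maternally expressed in some tissues, also fell. Blcap, a gene with a role in apoptosis that hosts the paternally expressed Nnat in an intron, was at 26.9, 26.9 and 27.5 CPM in shCdGAP and 53.7, 60.5 and 58.4 CPM in shCTL libraries. Libraries of a group lay close together, and the log2 fold change was −1.08 ± 0.10 SE (adjusted p = 0.00117). Nnat, a proteolipid gene of the developing brain, had 0 counts over the shCdGAP libraries and 2 over the shCTL libraries. Ppp1r9a, which encodes the actin-binding protein neurabin, was at 0.804, 0.499 and 0.595 CPM in shCdGAP and 2.84, 1.75 and 1.66 CPM in shCTL libraries, again without overlap. Its log2 fold change was −1.70 ± 0.34 SE (adjusted p = 0.0151), and without shCdGAP replicate 2 it missed the threshold (adjusted p = 0.0631).

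Copg2, Inpp5f and Impact passed the threshold with calls that were lost in some fits with a library left out. Copg2, a coatomer subunit gene beside Mest that is maternally expressed in some tissues, was at 126, 76.8 and 73.9 CPM in shCdGAP and 54.5, 52.1 and 49.96 CPM in shCTL libraries (log2 fold change 0.82 ± 0.22 SE, adjusted p = 0.0419). Inpp5f, an inositol phosphatase gene with a paternally expressed brain transcript, was at 59.3, 44.7 and 41.2 CPM in shCdGAP and 28.3, 29.9 and 30.3 CPM in shCTL libraries (log2 fold change 0.71 ± 0.16 SE, adjusted p = 0.0242). For both, the groups did not overlap, and the call was lost without shCTL replicate 1, 2 or 3 or shCdGAP replicate 2, with an adjusted p up to 0.145 for Copg2 and up to 0.0968 for Inpp5f and log2 fold changes of 0.79 to 0.94 for Copg2 and 0.67 to 0.77 for Inpp5f. Impact, a paternally expressed regulator of translation, was at 25.9, 15.8 and 15.1 CPM in shCdGAP and 35.0, 36.2 and 40.4 CPM in shCTL libraries (log2 fold change −0.97 ± 0.23 SE, adjusted p = 0.0286). Its groups did not overlap either, and the call was lost without any 1 library other than shCdGAP replicate 1 (log2 fold change −1.04 to −0.83, adjusted p up to 0.108).

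The other tested genes gave no call. At the Gnas locus, Gnas, which encodes the stimulatory G protein alpha subunit and is maternally biased in a few tissues, had the highest level per length of the set, at 82.8 CPM per kb in shCdGAP and 74.8 CPM per kb in shCTL (log2 fold change 0.15 ± 0.10 SE, adjusted p = 0.378). Nespas, the paternally expressed antisense RNA gene of this locus, was at 0.134, 0.453 and 0.396 CPM in shCdGAP and 0.619, 0.473 and 0.640 CPM in shCTL libraries (log2 fold change −0.80 ± 0.44 SE, adjusted p = 0.260). The groups did not overlap for either gene. Gnas exons cover 31.4% of the Nespas exon bases on the opposite strand.

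H13, a signal peptide peptidase gene, was at 157, 149 and 166 CPM in shCdGAP and 161, 199 and 205 CPM in shCTL libraries (log2 fold change −0.26 ± 0.12 SE, adjusted p = 0.190). Mcts2, a paternally expressed retrogene inside an intron of H13, was at 15.9, 16.8 and 17.5 CPM in shCdGAP and 19.1, 16.9 and 16.1 CPM in shCTL libraries (−0.05 ± 0.13 SE, adjusted p = 0.821), and how reads were split between it and its parent gene Mcts1 is uncertain. Sfmbt2, a paternally expressed Polycomb-group gene of the placenta, was at 20.2, 10.5 and 8.88 CPM in shCdGAP and 16.3, 7.90 and 6.36 CPM in shCTL libraries (0.38 ± 0.46 SE, adjusted p = 0.611). The groups overlapped for all of H13, Mcts2 and Sfmbt2. Without both libraries numbered 1, H13 (−0.35, adjusted p = 0.00222) and Sfmbt2 (0.45, adjusted p = 0.0346) passed the edgeR test, in a fit that called 52.2% of all tested genes.

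Igf2r, the maternally expressed receptor gene that clears the growth factor IGF2, was at 11.5, 10.1 and 7.45 CPM in shCdGAP and 12.8, 15.4 and 12.8 CPM in shCTL libraries (log2 fold change −0.50 ± 0.20 SE, adjusted p = 0.135). Airn, the paternally expressed non-coding RNA gene that silences Igf2r, was at 4.83, 5.08 and 2.26 CPM in shCdGAP and 2.53, 2.11 and 1.81 CPM in shCTL libraries (0.92 ± 0.35 SE, adjusted p = 0.119). The groups did not overlap for Igf2r and overlapped for Airn, in which shCdGAP replicate 3 lay below shCTL replicate 1. Trappc9, a vesicle transport gene that is maternally biased in mouse brain, was at 81.6, 62.2 and 50.5 CPM in shCdGAP and 38.1, 43.9 and 45.9 CPM in shCTL libraries (0.60 ± 0.19 SE, adjusted p = 0.0732). Without shCdGAP replicate 1, Igf2r (−0.63, adjusted p = 0.0196) and Trappc9 (0.41, adjusted p = 0.0283) passed the test, without shCdGAP replicate 3 Airn (1.21, adjusted p = 0.0245) and Trappc9 (0.75, adjusted p = 0.0349) did, and in DESeq2 Trappc9 (adjusted p = 0.0279) and Commd1 (adjusted p = 0.0349) did.

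Some clusters pair a paternally expressed RNA with a maternally expressed gene that it silences or overlaps, and for these the level per length of the paternal gene was set against that of the maternal gene within each library. These pairs were chosen after the values were seen. Airn was at 111%, 132% and 79.9% of Igf2r in shCdGAP libraries and 51.8%, 36.2% and 37.1% in shCTL libraries, so that every shCdGAP ratio was above every shCTL ratio (mean log2 difference 1.36 ± 0.27 SE; exact two-sided permutation p = 0.1, the smallest that 3 against 3 libraries allow, and 0.2 adjusted over 4 pairs). Nespas was at 0.0470%, 0.183% and 0.161% of Gnas in shCdGAP libraries and 0.255%, 0.210% and 0.270% in shCTL libraries (−1.13 ± 0.63 SE, exact permutation p = 0.1, adjusted 0.2). The counted Gnas gene holds RefSeq starts from 174284320 to 174330006, and its count sums the transcripts from all of them. This ratio is therefore not one of a paternal to a purely maternal transcript. Kcnq1ot1 was at 0.651%, 1.32% and 1.08% of Phlda2 in shCdGAP libraries and 0.337%, 0.704% and 0.723% in shCTL libraries (0.81 ± 0.47 SE, exact permutation p = 0.3, adjusted 0.4). Within same-numbered libraries, a comparison added after the data were seen, this ratio was higher in shCdGAP in 3 of 3 pairs, by 0.95, 0.90 and 0.58 on the log2 scale (exact two-sided sign permutation p = 0.25, the smallest that 3 pairs allow), and the Airn to Igf2r ratio was higher in 3 of 3 pairs (1.09, 1.87 and 1.11). Mcts2 was at 98.5%, 110% and 102% of H13 in shCdGAP libraries and 115%, 82.3% and 76.2% in shCTL libraries (0.20 ± 0.19 SE, exact permutation p = 0.4, adjusted 0.4). No pair passed the threshold, which a comparison of 3 with 3 libraries cannot reach.

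**Figure D4:**
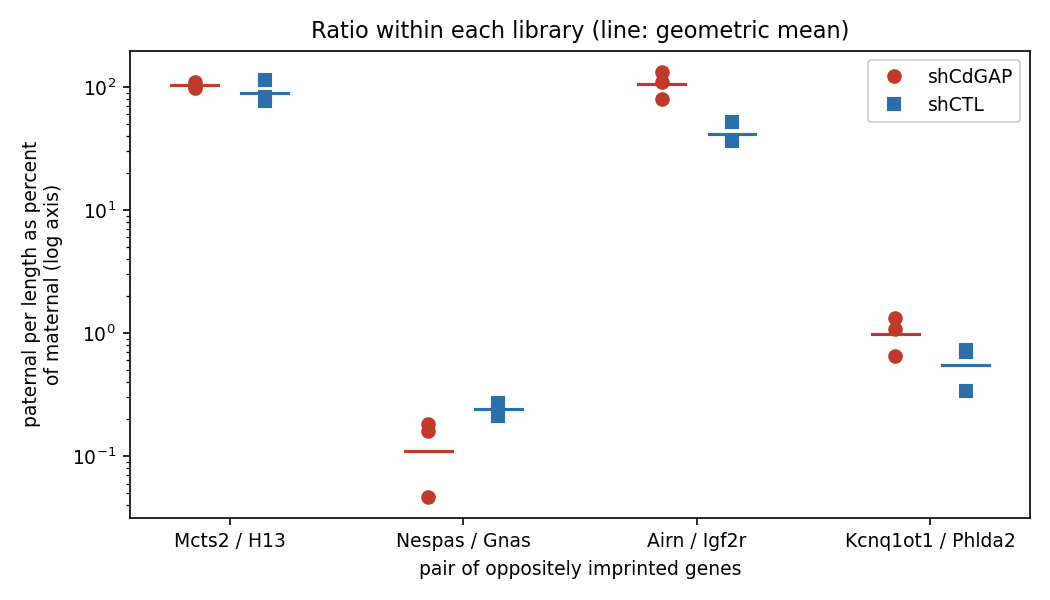
Level per length of the paternally expressed gene as a percentage of that of the gene classed as maternally expressed (log axis) in each of the 6 libraries for 4 pairs, with shCdGAP left of shCTL. The Airn to Igf2r ratio is 79.9% to 132% in shCdGAP and 36.2% to 51.8% in shCTL libraries, whereas the groups overlap for Mcts2 to H13 and for Kcnq1ot1 to Phlda2.

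The 11 imprinted genes at 0 in all 6 libraries were Peg10, Sgce, Mest, Ndn, Magel2, H19, Ascl2, Rasgrf1, Plagl1, Dlk1 and Kcnk9, 8 of them paternally and 3 maternally expressed. They include growth genes of the embryo and placenta (Peg10, Mest, Plagl1, Dlk1) and the growth-restraining non-coding RNA gene H19. Among protein-coding genes, 10 of 38 imprinted genes (26.3%) were at 0, beside 23.4% of all 21397 protein-coding genes in the files. The 3 counts that a 0 allows correspond to 0.109 to 0.155 CPM in a library. Igf2, the paternally expressed growth factor gene beside H19, had 6, 17 and 10 counts in the shCdGAP libraries and 2, 1 and 9 in the shCTL libraries. The groups overlapped, and the pooled ratio of 2.90 (exact 95% binomial interval 1.46 to 6.17) was 7.40 without shCTL replicate 3 and 1.98 without shCTL replicate 2. Zdbf2, a paternally expressed gene of the pituitary, had 1 and 2 counts over the shCdGAP and the shCTL libraries.

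A second list held 30 further genes reported as imprinted in some mouse tissue. Of these, 27 had a count and 8 were at 0 in all libraries. Among 11 tested genes 1 rose and 2 fell, beside 10.4% and 11.4% of all tested genes, with a median log2 fold change of −0.003. Without shCdGAP replicate 1, 3 rose and 3 fell, in a fit that called 41.8% of all tested genes. Gatm, a creatine synthesis gene with maternal expression in the placenta, was at 0.134, 0.272 and 0.0396 CPM in shCdGAP and 121, 140 and 137 CPM in shCTL libraries. It was near 0 in every shCdGAP library and fell by 9.79 on the log2 scale (SE 0.39, adjusted p = 9.61e-05). Its log2 fold change was −10.53 without shCdGAP replicate 2. Pon3, a lactonase gene, averaged 14.7 ± 3.91 CPM in shCdGAP and 8.14 ± 1.07 CPM in shCTL (0.85, adjusted p = 0.0425, and 0.0899 with the replicate block), and Ago2, a small RNA effector gene, averaged 237 ± 17.3 CPM in shCdGAP and 313 ± 3.99 CPM in shCTL (−0.41, adjusted p = 0.0283, and 0.0503 with the replicate block; SD, n = 3 each). Both calls were also lost without any 1 library other than shCdGAP replicate 1, with an adjusted p up to 0.143 for Pon3 and 0.128 for Ago2.

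A further list, of imprint regulators, held 20 genes that act on imprints or DNA methylation. Most write or keep imprints, but Tet1, Tet2 and Tet3, which oxidise methylated DNA, were also in it. Of the 20, 17 were tested, and 2 rose and 0 fell in edgeR, beside 10.4% and 11.4% of all tested genes. At an unadjusted p under 0.05 or in DESeq2, 0 fell. Without shCdGAP replicate 1, 8 rose, in a fit that called 41.8% of all tested genes. Without any 1 of the other libraries 0 or 1 did, in fits that called 10.2% to 18.2%. Dnmt3a, the methyltransferase gene that sets imprints in the germ line, averaged 49.7 ± 6.60 CPM in shCdGAP and 30.6 ± 3.49 CPM in shCTL (log2 fold change 0.70, adjusted p = 0.0202). Ehmt2, a histone methyltransferase gene, averaged 247 ± 9.76 CPM in shCdGAP and 186 ± 7 CPM in shCTL (0.40, adjusted p = 0.0230; SD, n = 3 each). Both calls were lost in some fits with 1 library left out. Dnmt3a lost its call without shCTL replicate 2 or 3 or shCdGAP replicate 2 (adjusted p up to 0.0984). Ehmt2 lost its call without any 1 library other than shCdGAP replicate 1 (adjusted p up to 0.129). Over all fits with 1 library left out, log2 fold changes ran from 0.63 to 0.81 for Dnmt3a and from 0.38 to 0.45 for Ehmt2. Zfp57, whose product protects methylated imprints (0.26, adjusted p = 0.378), its cofactor gene Trim28 (0.45, adjusted p = 0.123), the related Zfp445 (−0.01, adjusted p = 0.954), and the maintenance methylation genes Dnmt1 (−0.43, adjusted p = 0.606) and Uhrf1 (0.17, adjusted p = 0.902) were not called. In shCdGAP libraries 1, 2 and 3, Dnmt1 was at 62.0, 286 and 254 CPM and Uhrf1 at 18.1, 155 and 183 CPM, so replicate 1 stood apart. Leaving it out, edgeR called Trim28 (0.62, adjusted p = 0.00129) and Uhrf1 (0.69, adjusted p = 0.0125) risen. In that fit Dnmt1 (0.007, adjusted p = 0.971), Zfp57 (0.11, adjusted p = 0.557) and Zfp445 (−0.05, adjusted p = 0.707) stayed uncalled.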

How the data were processed

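RNA was sequenced in 3 shCdGAP and 3 shCTL libraries. Build GRCm38 and the tools TopHat2 2.0.14, CASAVA 1.8, DESeq, Trimmomatic 0.30 and Cuffdiff 2.2.1 are named in the submitters' processing notes. The deposited values were raw counts of read pairs per gene, made by the authors with featureCounts 1.4.6 and the Ensembl release 77 annotation at strand setting 2 (reverse-stranded), per the file headers. Gene symbols from GENCODE M21 matched 40254 of the 41214 gene identifiers.

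The counts were tested with edgeR 4.0.16 in R 4.3.3 (filterByExpr with a minimum count of 10 and a minimum total of 15, TMM scaling, quasi-likelihood F test, Benjamini-Hochberg adjustment over 13483 genes, called at an adjusted p under 0.05). Fold changes are given for shCdGAP over shCTL, and an SE is the absolute log2 value over the root of F. Folds against 0 counts use a floor of 3 counts over the group. Totals of 19176540 to 26824249 counts per library make 3 counts worth 0.109 to 0.155 CPM. The closest 2 libraries, shCTL replicates 2 and 3, differed by more than sampling noise (chi-square 3.00 per degree of freedom). On simulated counts for 13483 genes, of which 100 were changed 2-fold and 100 4-fold, 28% and 73% of these changes were called. Of the calls, 3.81% were false. In the data 21.7% of genes were called, a larger share than was changed in the simulation, so its percentages may not hold for the data.

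Same-numbered libraries deviated together from their group means (Pearson's r = 0.355, 0.289 and 0.246 for numbers 1, 2 and 3, across genes). All were past the threshold of 0.1 set for a pairing by number, which no label states. The pairing of numbers 2 and 3 is uncertain: shCdGAP replicate 2 with shCTL replicate 3 gave r = 0.254, and shCdGAP replicate 3 with shCTL replicate 2 gave r = 0.186. The main fit, the source of the p-values and calls where no other fit is named, did not use this pairing. A fit with the replicate number as a block was an alternative, as were DESeq2 1.42.0, its size factors, other filters, and leaving out each library or both libraries numbered 1. Parental allele, cluster and the extent of imprinting were assigned from general knowledge.

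Genes were named by rule: Arhgap31, every imprinted gene that was called or reached 1 CPM in either group, Zrsr2 as the parent of Zrsr1, and in each further list and among neighbours the 3 risen and 3 fallen called genes with the smallest adjusted p. Nespas, Gm38393, Snhg14, Mcts1, the genes of the low-count clusters and the uncalled imprint regulator genes lie outside this rule and were chosen after their values were seen. The members and lists were chosen with earlier results of these data known. Promoter sequences are from RefSeq (GRCm38.p6).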

Additional observations from a re-analysis of the deposited data

How the results depend on the processing

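Of the 10 called imprinted genes, Zrsr1, Dio3, Ddc, Peg3, Phlda2 and Blcap kept their call under every alternative in which they were tested, and Copg2, Inpp5f, Ppp1r9a and Impact lost it in some. With the replicate block, which pairs same-numbered libraries, 11 of 23 were called (20.4% of all tested genes), Kcnq1ot1 being added, and of the further imprinted genes 0 rose and 1 fell. Apart from Kcnq1ot1, Pon3 and Ago2, the block changed no call of a named gene. DESeq2 called 13 of 23 (28.5% of all tested genes), adding Kcnq1ot1, Commd1 and Trappc9. At a mean of at least 10 CPM, 870 genes rose and 825 fell, with 2 risen imprinted genes and 11 risen neighbours. Copg2 then missed the threshold (adjusted p = 0.0539). Without both libraries numbered 1, 3475 genes rose and 3640 fell, as did 9 and 9 imprinted genes (52.2% of all tested genes were called) and 36 and 38 neighbours. In that fit 3 further imprinted genes rose, and of the imprint regulators 8 rose and 1, Tet3, fell. With no filter (2952 of all 22322 genes called), 2 further imprinted genes rose, Asb4 among them, and 1 fell, and 1 imprint regulator gene rose. Within 100 kb, 11 neighbours rose and 4 fell. At 2 and 0.4 CPM, 2 imprinted genes were past the upper threshold in shCdGAP and below the lower one in shCTL and 1 was the reverse, and at 1 and 0.2 CPM without shCdGAP replicate 1, 1 was the reverse. Leaving out each library in turn, 538 to 2753 genes rose and 856 to 3032 fell, as did 3 to 7 and 3 to 8 imprinted genes and 8 to 31 and 6 to 29 neighbours. The same fits gave 0 to 3 risen and 1 to 3 fallen further imprinted genes, and 0 to 8 and 0 to 0 imprint regulator genes. The thresholds of 1 and 0.2 CPM were met by 1 to 1 imprinted genes with shCdGAP high and 0 to 1 with shCTL high. Uncalled log2 fold changes changed sign for Sfmbt2 (−0.0459 to 0.864), Mcts2 (−0.107 to 0.0104, and 0.0675 without both libraries numbered 1) and Ube3a (−0.0565 to 0.0592, and 0.0776 without them). For Sfmbt2 the sign changed only without shCdGAP replicate 1. Its log2 fold change was 0.40 with the replicate block (adjusted p = 0.122) and 0.45 without both libraries numbered 1 (adjusted p = 0.0346). The causes were not tested. Depth limits the 11 low-count genes, at most 17 counts in a library.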

Other observations

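Xist, the X-inactivation RNA gene, which is imprinted in mouse extraembryonic tissue and was chosen after its values were seen, was at 1748, 1614 and 1100.3 CPM in shCdGAP and 349, 421 and 347 CPM in shCTL libraries. Every shCdGAP library was above every shCTL library, and Xist rose by 2.00 on the log2 scale (SE 0.20, adjusted p = 0.00133 in edgeR).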
